A study of Mus musculus with 4 samples.

Results

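The core pluripotency factors Pou5f1, Sox2, Nanog, Sall4, Utf1, Lin28a and Prdm14 were followed in mouse embryonic stem cells with and without the histone acetyltransferase Gcn5 (gene Kat2a). The 7 genes were taken by symbol from the 23259 genes listed in all libraries, and all 7 were among the 11932 genes tested. The KO clones carried a deletion of exons 3 to 18 of Gcn5, made in Gcn5flox/flox stem cells by transient transfection of an EGFP-Cre vector, and were picked as single colonies from cells sorted as GFP-positive at 72 hours. The WT clones were colonies of the GFP-negative cells of the same sort and kept their floxed alleles. Founder lines 6 and 4, derived from blastocysts of Gcn5flox/flox mice at embryonic day 3.5 and of normal male karyotype, each gave 1 KO clone and 1 WT clone, so that each genotype holds 2 clones and each clone 1 library. The culture medium held 15% serum and LIF at 1000 U/mL, over feeder fibroblasts of mouse embryos stopped from dividing with mitomycin. The sources used here do not say whether feeders were removed before RNA extraction.

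Pou5f1 (also called Oct4), Sox2 and Nanog are transcription factors that bind together at enhancers of stem cell genes, their own included, and keep embryonic stem cells from differentiating. Sall4 is a zinc finger factor that sustains Pou5f1 expression, and Utf1 is a chromatin-associated protein encoded by a target gene of Pou5f1 and Sox2. Prdm14 is a zinc finger factor that represses FGF receptor and DNA methyltransferase genes in naive stem cells. Lin28a is an RNA-binding protein that blocks the maturation of let-7 microRNAs.

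RNA was measured as FPKM, which is per transcript length, scaled by the authors to spike-in RNA. The depth of the libraries is unknown, and between 11562 and 12174 genes reached 1 FPKM in a library. Kat2a stood at 11.5 FPKM in each KO clone, against 34.4 FPKM in WT of line 6 and 38.7 FPKM in WT of line 4 (log2 fold change -1.58, SE 0.23, limma adjusted p = 0.0112). The values are per gene and do not set the deleted exons apart. As deposited, KO had the lower value in both lines for 86.3% of tested genes, the median log2 fold change of all of them was -0.32, and the median gene had a KO/WT ratio of 0.88 in line 6 and 0.735 in line 4. The spike-ins themselves differed by genotype: 12 of the 51 at 1 FPKM or more had KO/WT ratios under 0.4 in each line, while the median ratio was 1.41 in line 6 and 1.27 in line 4 and the highest 2.44 and 2.54. Between the lines, 0 of the 51 were under 0.4 within KO and 0 within WT. The labels say that 1 of 2 spike-in mixes was added, without saying to which clone. The part of these differences in the lower KO values was not tested, and changes are therefore also given relative to the median gene.

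All 12 stem cell markers that are not among the factors were listed at 14.5 FPKM or more in every library. Of the markers of other cells, 11 of 11 mesoderm, 7 of 13 trophectoderm, 7 of the 12 listed neuroectoderm and 5 of 15 endoderm genes were under 1 FPKM in all libraries. Fibroblast markers were present: 1 of 32, Fap, was under 1 FPKM in all libraries and 0 were without signal. The 32 summed to 569 FPKM in KO and 470.0 FPKM in WT of line 6, and to 391 FPKM in KO and 526 FPKM in WT of line 4. In a bulk library, fewer stem cells and less of a transcript per stem cell cannot be told apart.

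The promoters of 3 factors (Nanog, Sox2 and Pou5f1) are shown to compare them for sites of POU and SOX factors. The windows run from 250 bases before to 50 bases after a transcription start in RefSeq on GRCm38.p6, on the plus strand, and capitals mark matches to the POU core ATGCAAA, the SOX core ACAATG or their composite, CATTGT followed by ATGCAAA with 0 or 1 base between, searched on both strands. Matches to the composite overlap those to the cores, and in Nanog it reads as its reverse complement. The Nanog window at chr6:122707315-122707614 holds the composite 151 to 138 bases before the start. The Sox2 window at chr3:34649745-34650044 holds the POU core 99 to 93 bases before the start. The first Pou5f1 window, at chr17:35505782-35506081, holds neither.
Nanog: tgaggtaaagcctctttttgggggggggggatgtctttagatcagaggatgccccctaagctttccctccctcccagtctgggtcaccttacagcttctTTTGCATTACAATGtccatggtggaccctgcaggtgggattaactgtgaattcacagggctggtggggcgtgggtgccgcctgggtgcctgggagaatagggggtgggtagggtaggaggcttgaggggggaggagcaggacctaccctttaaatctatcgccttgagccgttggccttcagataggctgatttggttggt
Sox2: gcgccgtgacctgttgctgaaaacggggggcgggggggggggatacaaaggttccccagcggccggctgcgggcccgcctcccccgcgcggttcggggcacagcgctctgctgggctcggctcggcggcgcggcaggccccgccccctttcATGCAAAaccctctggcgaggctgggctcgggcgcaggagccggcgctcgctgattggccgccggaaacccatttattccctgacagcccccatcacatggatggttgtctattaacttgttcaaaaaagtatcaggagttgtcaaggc
Pou5f1: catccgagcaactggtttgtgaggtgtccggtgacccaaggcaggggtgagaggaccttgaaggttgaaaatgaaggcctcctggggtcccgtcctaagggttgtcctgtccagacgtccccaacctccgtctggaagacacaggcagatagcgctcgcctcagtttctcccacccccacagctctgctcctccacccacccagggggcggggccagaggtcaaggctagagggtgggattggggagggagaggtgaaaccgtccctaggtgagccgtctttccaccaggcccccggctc

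The composite was found in the windows of 2 of 27025 genes with a RefSeq window, Nanog and Acyp1. The POU core was found in 5.24% of these genes and the SOX core in 14.3%. Of the 5 factors with a window, Nanog and Sox2 held a POU core, and Nanog, Lin28a and a second start of Pou5f1 held a SOX core. The full octamer ATGCAAAT, the Myc E-box CACGTG and the TATA sequence TATAAA were in no window of these 5 factors, against 1.97%, 8.09% and 15.7% of all genes. Sall4 and Prdm14 are not shown. A match describes these letters only.

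Pou5f1 was the most abundant of the 7 transcripts in every library and Prdm14 the least. By FPKM the order was Pou5f1, Sox2, Nanog, Lin28a, Utf1, Sall4 and Prdm14 in both clones of line 4, and in both clones of line 6 Lin28a stood above Nanog. Pou5f1 was within the top 1.56% of tested genes in every library, and Sox2 within the top 6.63%. From Sox2 down to Sall4, the ranges of neighbours in this order overlapped over the libraries. Prdm14 stood apart, at 67.4% to 77.8% of the way down the tested genes. The 7 factors made up 0.194% of all FPKM in KO and 0.186% in WT of line 6, and 0.161% in KO and 0.165% in WT of line 4.

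**Figure D1:**
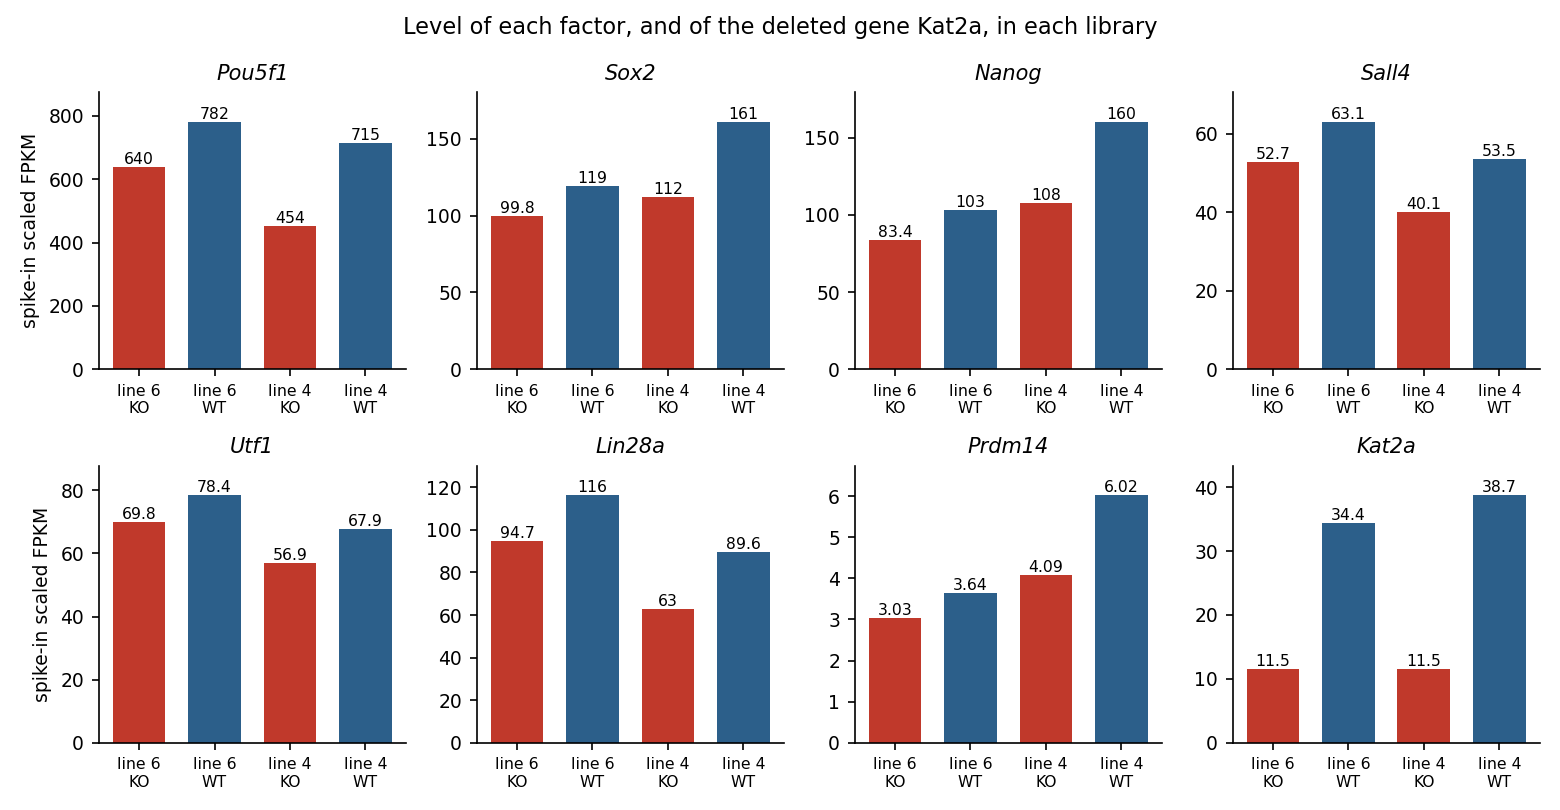
Spike-in scaled FPKM of each factor and of Kat2a (vertical axes, from 0) in the 4 libraries, with KO in red and WT in blue; each bar is 1 library. All 7 factors are lower in KO in each line, by 16.2% to 36.5% in line 4 and by 11% to 18.9% in line 6.

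On the deposited scale all 7 factors had lower values in KO than in WT within each line, whereas after centring on library medians the log2 fold change of Utf1 was 0.10, and with quantile normalization those of Utf1 and Sall4 were 0.16 and 0.03. The drop was larger in line 4 than in line 6 for all 7, as for 89.0% of tested genes. It ran from 11% for Utf1 to 18.9% for Nanog in line 6, and from 16.2% for Utf1 to 36.5% for Pou5f1 in line 4. A lower value in KO of both lines was the rule for all genes, at the 86.3% given above. Of the 7, 0 passed the test between KO and WT, in which limma called 0.0168% of all genes, and 0 passed with the founder line as a block, where it called 0.796%.

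Pou5f1 stood at 640.0 FPKM in KO of line 6 and 454 FPKM in KO of line 4, against 782 FPKM in WT of line 6 and 715 FPKM in WT of line 4. Both KO clones were below both WT clones. The means were 547 ± 132 FPKM in KO and 748 ± 47.2 FPKM in WT (SD, n = 2 each). A log2 fold change of -0.47 (SE 0.21, 95% interval -0.90 to -0.04) came with a limma adjusted p of 0.445, or 0.183 with the block. Pou5f1 was the 1 factor with an unadjusted p under 0.05 in limma without the block, against 5.46% of all tested genes lower and 0.0838% higher at that p. With the block the unadjusted limma p was 0.0058 for Pou5f1, 0.022 for Nanog, 0.0385 for Lin28a and 0.040 for Sox2. The spread behind these p-values came from all genes at a like level and not from the gene's own clones. In that fit 2309 of 11932 tested genes were lower and 54 higher at an unadjusted p under 0.05.

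Sox2, the partner of Pou5f1 on DNA, stood at 99.8 and 112 FPKM in KO of lines 6 and 4, against 119 and 161 FPKM in WT of lines 6 and 4. Here too the KO clones were below both WT clones. Its log2 fold change of -0.39 (SE 0.21, interval -0.84 to 0.06) had a limma adjusted p of 0.445. Sox2 lies within the longer transcript unit Sox2ot on the same strand, which was listed at 0.143 to 0.343 FPKM. Pou5f1, Sall4 and Lin28a are overlapped by genes annotated on the opposite strand, and since the strand setting of the counting is not known here, reads of such partners cannot be told apart.

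Nanog, a homeodomain factor, stood at 83.4 and 108 FPKM in KO of lines 6 and 4, against 103 and 160.3 FPKM in WT of lines 6 and 4. The genotypes overlapped, since KO of line 4 was above WT of line 6. Its log2 fold change of -0.43 (SE 0.23, interval -0.93 to 0.06) had a limma adjusted p of 0.445. The entry Nanogpd, which the reference tables do not annotate, was listed at 113 and 145 FPKM in KO of lines 6 and 4, against 139.9 and 216 FPKM in WT of lines 6 and 4. Its pattern over the libraries was the nearest of all candidates to that of Nanog. How the counting treated reads that match both entries is not known here and was not tested.

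Sall4 stood at 52.7 and 40.1 FPKM in KO of lines 6 and 4, against 63.1 and 53.5 FPKM in WT of lines 6 and 4, and its KO clones were below both WT clones. Its log2 fold change of -0.33 (SE 0.23, interval -0.80 to 0.14) had a limma adjusted p of 0.445. Both KO clones below both WT clones held for 3 of the 7 factors, Pou5f1, Sox2 and Sall4, and for 59.8% of tested genes. On centred values it held for 0 of the 7, against 8.74% of tested genes.

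Utf1 had the smallest difference of the 7. It stood at 69.8 and 56.9 FPKM in KO of lines 6 and 4, against 78.4 and 67.9 FPKM in WT of lines 6 and 4, and the genotypes overlapped (log2 fold change -0.21, SE 0.22, limma adjusted p = 0.481, interval -0.66 to 0.25).

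Lin28a stood at 94.7 and 63.0 FPKM in KO of lines 6 and 4, against 116 and 89.6 FPKM in WT of lines 6 and 4. Its WT clone of line 4 was below its KO clone of line 6 (log2 fold change -0.40, SE 0.23, limma adjusted p = 0.445, interval -0.89 to 0.09). Prdm14 stood at 3.03 and 4.09 FPKM in KO of lines 6 and 4, against 3.64 and 6.02 FPKM in WT of lines 6 and 4, also with overlap (log2 fold change -0.33, SE 0.28, limma adjusted p = 0.447, interval -0.92 to 0.26). At this level the pseudocount of 1 FPKM understates its fold change. With 2 clones against 2, an exact two-sided permutation test of a single gene cannot give a p below 0.333.

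Relative to the median gene the factors moved little. Pou5f1 lay below it in both lines, at -0.10 in line 6 and -0.21 in line 4 on the log2 scale, a ratio of 0.931 and 0.865. In line 6, 22.0% of tested genes lay lower than Pou5f1, and in line 4 8.51% did. Nanog lay at -0.11 in line 6 and -0.12 in line 4, with 19.4% and 19.1% of genes lower, and Sox2 lay at -0.07 in each line, with 30.1% and 30.0% of genes lower.

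Lin28a was also below the median gene in both lines, at -0.11 in line 6 and -0.06 in line 4, and Prdm14 lay at -0.02 in each. Sall4 lay at -0.07 in line 6 and 0.04 in line 4, on opposite sides, as did 45.8% of tested genes. Utf1 exceeded the median gene in each line, at 0.02 in line 6 and 0.19 in line 4, where 86.2% of genes lay lower. With 1 clone of each genotype per line, these values are a description and have no test.

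In all, 5 of the 7 factors were below the median gene in both lines, as were 27.1% of tested genes, and the median of the 7 was -0.07 in line 6 and -0.06 in line 4. By at least 1.5-fold, 0 of the 7 differed from the median gene in either line, against 1.83% of tested genes in line 6 and 1.68% in line 4. The interquartile range of all tested genes was -0.09 to 0.10 in line 6 and -0.09 to 0.11 in line 4. Set against the 12 stem cell markers in place of the median gene, a choice made after the data were seen, 1 of the 7, Pou5f1, was below in both lines. Pou5f1 lay above 0 in line 6 with quantile normalization (0.13) and against the 500 genes nearest in level (0.008). With all genes of the files kept, Sall4 (-0.19 in each line) and Utf1 (-0.10 in line 6 and -0.03 in line 4) were also below the median gene. The fibroblast markers stood above the median gene, at a median of 0.45 in line 6 and 0.07 in line 4. Of 28 tested members 21 were above it in both lines, against 27.1% of tested genes, and 0 were past the test. The part of these markers in the lower place of the factors was not tested.

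**Figure D2:**
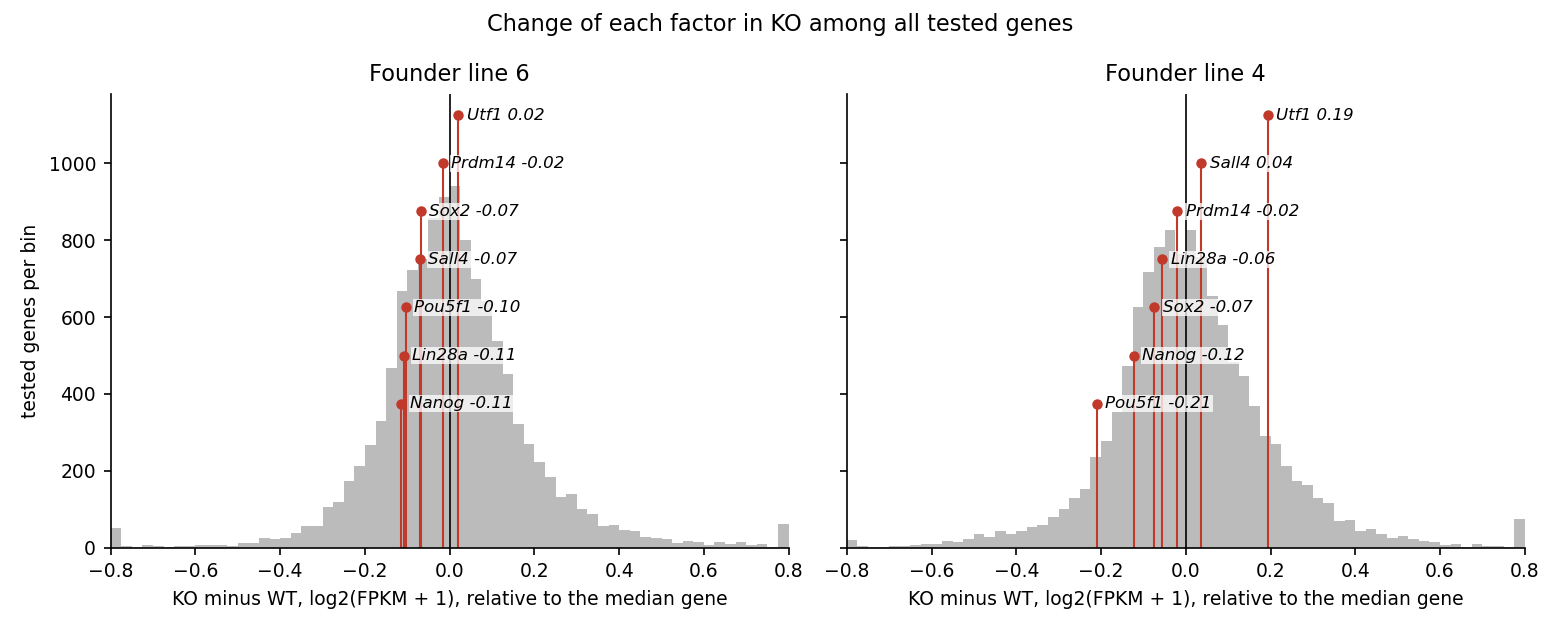
KO minus WT on the log2(FPKM + 1) scale relative to the median gene (horizontal axis) for all 11932 tested genes (grey bars, genes per bin on the vertical axis, with genes beyond 0.8 drawn in the end bins) and for the 7 factors (red, at staggered heights for legibility) in each founder line. The factors lie within 1.5-fold of the median gene, from -0.11 for Nanog to 0.02 for Utf1 in line 6. In line 4 they run from -0.21 for Pou5f1 to 0.19 for Utf1.

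The factors fell into 2 groups by founder line, in the same way in both genotypes. Pou5f1, Sall4, Utf1 and Lin28a were higher in line 6 in KO and in WT, and Sox2, Nanog and Prdm14 were lower in line 6 in KO and in WT. On the deposited scale 0 of the 7 passed the test between the lines, in which limma called 1.98% of all genes (0.947% higher and 1.03% lower in line 6), and 0 of the 7 had an unadjusted p under 0.05, against 8.62% of all genes. With genotype as a term, 0 of the 7 passed, against 9.13% of all genes.

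Lin28a had the largest difference upward. Its level in line 6 was 1.5 times that of line 4 between the KO clones and 1.3 times between the WT clones, so that both clones of line 6 were above both of line 4 (log2 fold change 0.48, SE 0.36, limma adjusted p = 0.882, interval -0.23 to 1.18). Utf1 was likewise without overlap, at ratios of 1.23 in KO and 1.16 in WT. Sall4 had ratios of 1.31 in KO and 1.18 in WT, and Pou5f1 1.41 in KO and 1.09 in WT, each with overlap between the lines. Without the KO clone of line 4 the log2 difference of Pou5f1 was -0.015, against 0.31 with it. Line 4 is then WT only, so line and genotype are mixed. The median of all tested genes was -0.23 without that clone, against -0.013 with it.

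Prdm14 and Nanog were the lowest in line 6 against line 4. Prdm14 had a ratio of 0.742 between the KO clones and 0.604 between the WT clones (log2 fold change -0.47, SE 0.30, limma adjusted p = 0.774). Without the KO clone of line 4 the log2 fold change of Prdm14 was -0.70. Line 4 is then WT only, so line and genotype are mixed, and the median of all tested genes was -0.23. Nanog had a ratio of 0.774 in KO and 0.642 in WT (log2 fold change -0.50, SE 0.36, limma adjusted p = 0.857, interval -1.21 to 0.21), and for both genes the lines did not overlap. Sox2 had ratios of 0.890 in KO and 0.740 in WT, with overlap. A lack of overlap between the lines held for 4 of the 7 factors and for 33.7% of tested genes.

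Once each library was centred on its median, all 7 factors separated the lines without overlap, as did 70.1% of tested genes. On these values limma called 4 of the 7, against 30.2% of all genes. Lin28a (log2 fold change 0.52, SE 0.08, limma adjusted p = 0.00761) and Sall4 (0.35, SE 0.08, adjusted p = 0.0184) were higher in line 6, and Nanog (-0.46, SE 0.09, adjusted p = 0.0127) and Prdm14 (-0.43, SE 0.09, adjusted p = 0.0177) were lower. Sox2 (-0.26, adjusted p = 0.0511), Utf1 (0.29, adjusted p = 0.0543) and Pou5f1 (0.35, adjusted p = 0.0622) kept their directions and did not pass. With genotype as a term on centred values, Sox2 (adjusted p = 0.0453) and Pou5f1 (0.0243) passed in limma as well, which makes 6 of the 7, against 29.6% of all genes. Each line is 1 embryo-derived founder with 2 sister clones, so these p-values describe the 2 lines and not lines in general. Markers of other cells also differed between the lines: of 28 fibroblast genes S100a4 was higher and Mmp3 lower in line 6, and of 9 endoderm genes Cubn and Dab2 were higher in line 6 (limma, as deposited). That test called 1.98% of all tested genes. In line 4, Cubn stood at 0.321 FPKM in KO and 1.09 FPKM in WT, and Dab2 at 0.489 and 1.37 FPKM. Both reached the filter of 1 FPKM on average only through line 6, which favours a higher call there. The part of the markers of other cells in the differences of the factors was not tested.

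**Figure D3:**
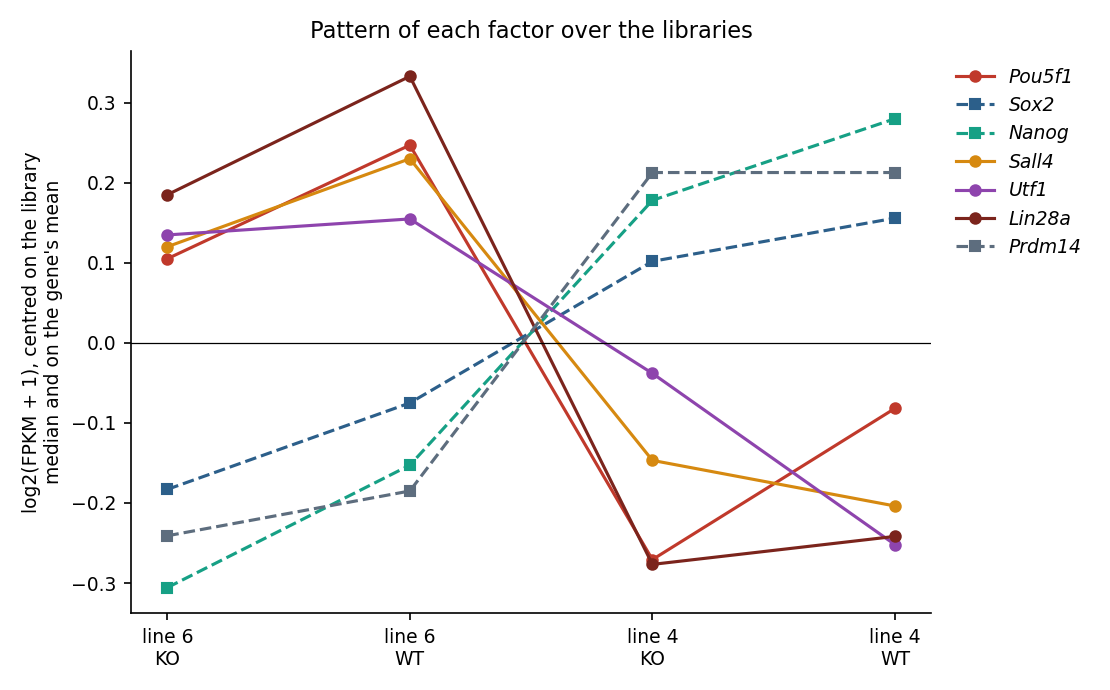
Level of each factor in the 4 libraries on the log2(FPKM + 1) scale (vertical axis), centred on each library's median and on the gene's own mean; the lines join the values of 1 gene and carry no order. Pou5f1, Sall4, Utf1 and Lin28a (circles, solid) are above their mean in both clones of line 6, and Sox2, Nanog and Prdm14 (squares, dashed) are above it in both clones of line 4.

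**Figure D4:**
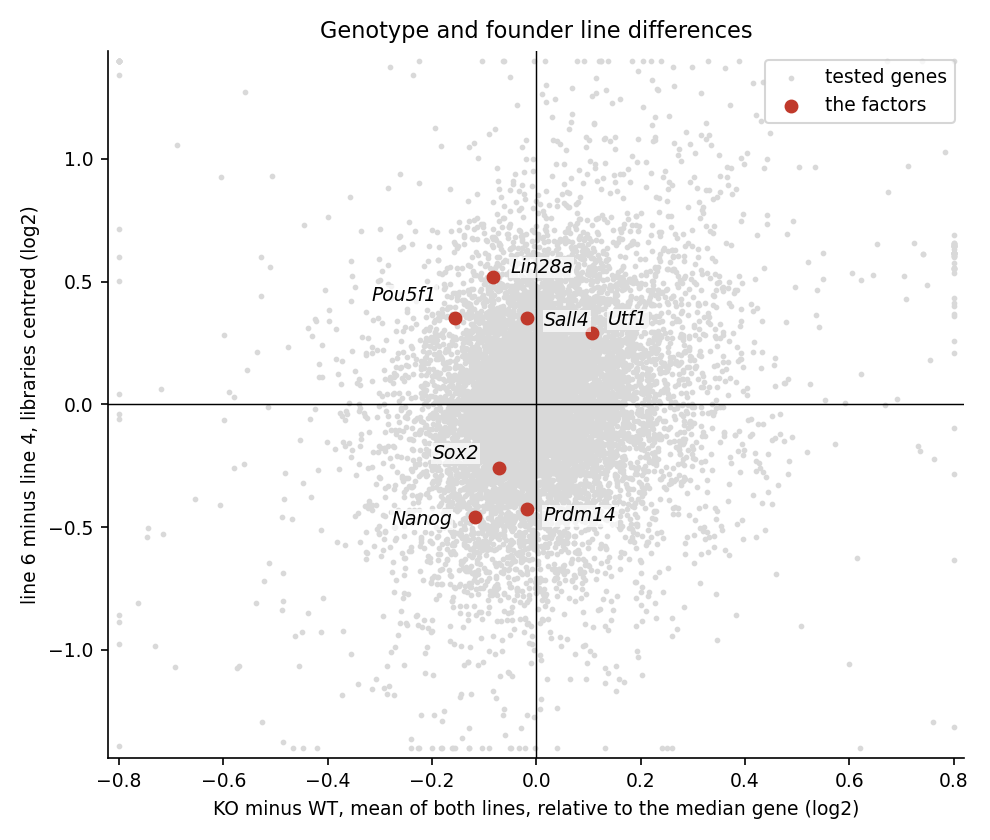
For each tested gene (grey) and each factor (red), KO minus WT as the mean of both lines relative to the median gene (horizontal axis, log2) and line 6 minus line 4 after centring of the libraries (vertical axis, log2); genes beyond the axes are drawn at their edge. The factors run from -0.16 for Pou5f1 to 0.11 for Utf1 between genotypes and from -0.46 for Nanog to 0.52 for Lin28a between lines.

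Ratios between factors within a library need no scaling between libraries. The 7 ratios examined differed more between the lines than between the genotypes. Most of these pairs join a factor higher in line 6 to a factor lower in it, which favours a difference between the lines. No pair joins factors that were both higher in line 6, and other pairs were not examined. Utf1 and Pou5f1, both higher in line 6, lay at 0.19 and -0.21 relative to the median gene between KO and WT of line 4. Sox2 stood at 0.156 of Pou5f1 in KO and 0.152 in WT of line 6, and at 0.247 in KO and 0.225 in WT of line 4. Nanog stood at 0.130 of Pou5f1 in KO and 0.132 in WT of line 6, and at 0.238 in KO and 0.224 in WT of line 4. The ratio of Nanog to Sox2 ran from 0.836 to 0.995 over the 4 libraries and that of Prdm14 to Nanog from 0.0354 to 0.0379. Lin28a stood at 0.949 of Sox2 in KO and 0.976 in WT of line 6, and at 0.562 in KO and 0.556 in WT of line 4. Of the 7 ratios, Utf1 to Sox2 had the largest difference between genotypes, at 0.507 in KO and 0.421 in WT of line 4, and at 0.70 in KO and 0.658 in WT of line 6.

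Of 30 further genes of the pluripotency network, 0 passed the test between KO and WT, with 7 lower at an unadjusted p under 0.05 in limma, against 5.46% of all tested genes, which is also the background of the same count in the other lists. The lists share genes with each other and with the stem cell markers. Of these 30, 12 were below the median gene in both lines and 9 above it, and their median was -0.03 in line 6 and -0.08 in line 4. Of all tested genes 27.1% were below it in both lines and 27.1% above, which is also the background in the other lists. Zfp296, a zinc finger factor of stem cells, lay at -0.44 in line 6 and -0.23 in line 4, with 6.49 and 7.22 FPKM in KO of lines 6 and 4, against 10.5 and 12.1 FPKM in WT. Otx2, a factor of the primed epiblast, lay at 0.01 in line 6 and 0.68 in line 4, with 5.83 and 5.89 FPKM in KO of lines 6 and 4, against 6.73 and 4.84 FPKM in WT. Between the lines 1 of the 30 passed on the deposited scale, against 1.98% of all tested genes. It was Tcl1, a coactivator of the kinase Akt (log2 fold change -1.31, limma adjusted p = 0.012). Tcl1 stood at 14.5 FPKM in KO and 17.2 FPKM in WT of line 6, against 30.0 FPKM in KO and 54.4 FPKM in WT of line 4.

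Among 15 genes known as targets of Pou5f1, Sox2 and Nanog, 0 passed between KO and WT (3 lower at an unadjusted p under 0.05), 6 were below the median gene in both lines and 0 above it, with medians of -0.12 in line 6 and -0.07 in line 4. Nr0b1, an orphan nuclear receptor that binds Pou5f1, lay at -0.23 in line 6 and -0.42 in line 4 (33.8 and 24.4 FPKM in KO of lines 6 and 4, against 45.3 and 45.1 FPKM in WT). Tdgf1, a coreceptor of Nodal, lay at -0.08 in line 6 and -0.25 in line 4.

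The Lin28 and let-7 list, which holds processing factors and let-7 targets, had 25 tested genes. Of these 0 passed between KO and WT (1 lower at an unadjusted p under 0.05), 6 were below and 8 above the median gene in both lines, and the medians were 0.03 in line 6 and 0.01 in line 4. Dis3l2, the nuclease that degrades uridylated let-7 precursors, lay at -0.22 in line 6 and -0.60 in line 4, and Hmga2, a chromatin protein and let-7 target, at 0.36 in line 6 and 0.17 in line 4. Lin28b, the paralog of Lin28a, was listed at 9.71 FPKM in KO and 11 FPKM in WT of line 6, and at 5.10 FPKM in KO and 7.76 FPKM in WT of line 4, higher in line 6 in both genotypes, as Lin28a was.

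The Prdm14 list, which holds its corepressor Cbfa2t2, FGF receptors, DNA methylation genes and Polycomb subunits, had 17 tested genes, of which 0 passed (2 lower at an unadjusted p under 0.05), 5 were below and 4 above the median gene in both lines, with medians of 0.03 in line 6 and -0.01 in line 4. Fgfr2, an FGF receptor, lay at 0.13 in line 6 and 0.69 in line 4, and Eed, a Polycomb subunit, at -0.06 in line 6 and -0.25 in line 4. The de novo methyltransferase gene Dnmt3b was listed at 154 FPKM in KO and 204 FPKM in WT of line 6, against 86.8 FPKM in KO and 84.3 FPKM in WT of line 4. Its difference between the lines did not pass (log2 fold change 1.04, limma adjusted p = 0.145). Of 44 family members of the factors, 19 were tested and 22 were under 1 FPKM in all libraries. Since only 11562 to 12174 of all 23259 genes reached 1 FPKM in a library, this count is not read as particular to the family members. Between KO and WT 0 passed (1 lower at an unadjusted p under 0.05), with medians of 0.07 in line 6 and 0.09 in line 4. Pou2f3 lay at -0.24 in line 6 and -0.72 in line 4, and Sox3 at 0.03 in line 6 and 0.62 in line 4. Between the lines limma called 3 of the 19 higher in line 6, namely Sall2, Pou3f1 and Sox3, against 0.947% of all tested genes. Sox3 stood at 0.515 FPKM in KO and 0.345 FPKM in WT of line 4. Sall2 and Sox3 reached the filter of 1 FPKM on average only through line 6, which favours a call in this direction. With all genes kept, limma called 0 genes between the lines. Sall2 stood at 3.24 FPKM in KO and 3.98 FPKM in WT of line 6, against 0.612 FPKM in KO and 0.644 FPKM in WT of line 4 (log2 fold change 1.5, limma adjusted p = 1.52e-06).

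**Figure D5:**
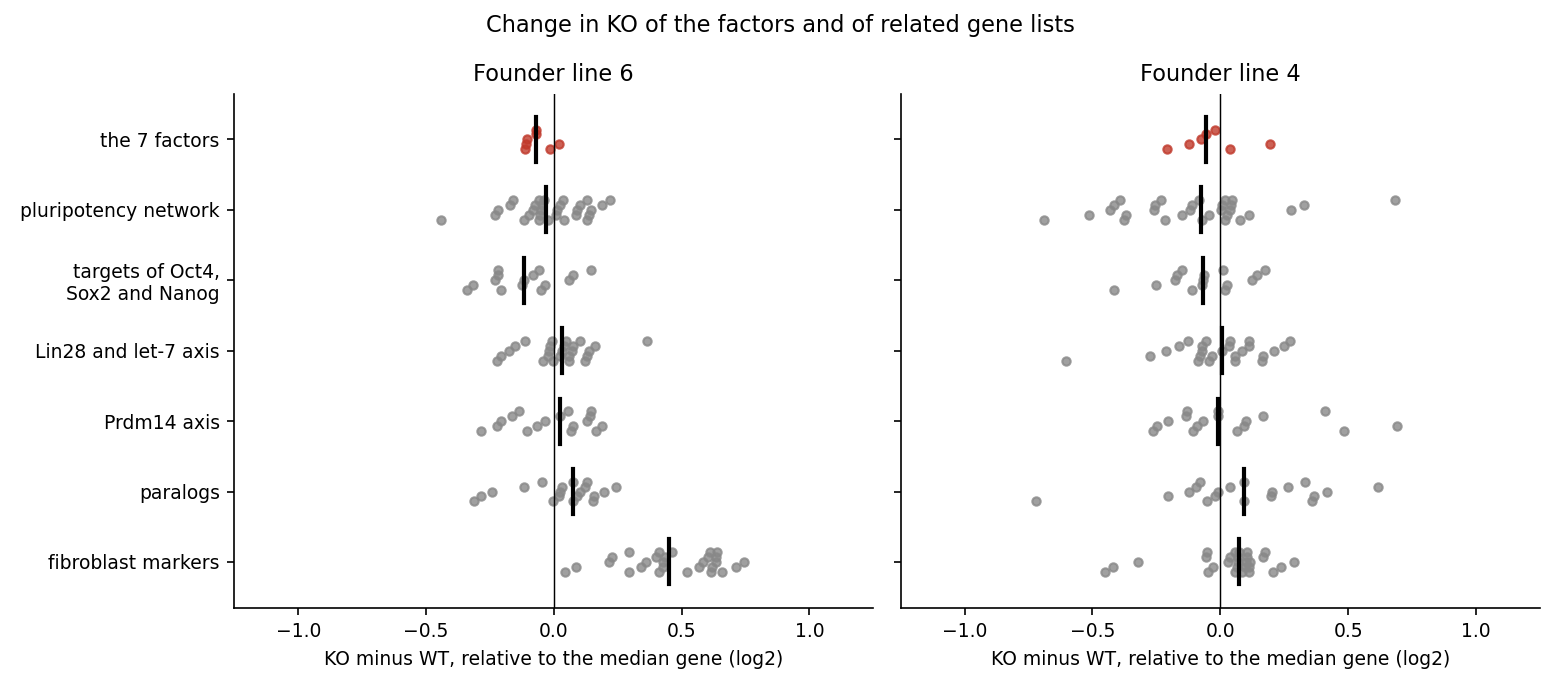
KO minus WT relative to the median gene (horizontal axis, log2) for each tested gene (points) of the 7 factors, of 5 related lists and of the fibroblast markers, in each founder line; black bars are medians. The medians of the factors and related lists lie between -0.12 and 0.09, and that of the fibroblast markers lies at 0.45 in line 6 and 0.07 in line 4.

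The genes whose pattern over the 4 libraries was most like each factor were found among genes within 4-fold of its mean level, after centring, by the root mean square difference in log2 units. Nap1l1 was nearest to Pou5f1 (0.0113), Npc2 to Sox2 (0.00983), Nanogpd to Nanog (0.00491), Dppa4 to Sall4 (0.00767), Uba6 to Utf1 (0.00274), Ddx39b to Lin28a (0.00544) and Edem2 to Prdm14 (0.0107). The second in order were Hnrnph1 for Pou5f1, Spag5 for Sox2, Ddx50 for Nanog, Drg2 for Sall4, Acaca for Utf1, Hnrnpm for Lin28a and Aurkc for Prdm14. Typical candidates differed by 0.169 to 0.275. Between the factors themselves the closest pair was Nanog and Prdm14 (0.0528) and the most distant Nanog and Lin28a (0.489). With 4 libraries, many genes lie close to any pattern.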

How the data were processed

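RNA of 4 stem cell clones was sequenced after removal of ribosomal RNA in a stranded kit, with 1 library per clone. The authors deposited FPKM per gene, normalized to spike-ins according to the file headers. The submitters' processing notes name Bowtie 0.12.8, TopHat2 2.0.9, affy, HTSeq, edgeR and the build mm9 without their roles. The way of scaling to spike-ins was not given in the sources used here, depth is unknown and no counting interval is given. Files were joined by gene name, which left out 25 entries of each file, and the 92 spike-ins were kept apart.

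The scale was log2(FPKM + 1), on which changes of low genes are understated. The 11932 genes averaging 1 FPKM or more over the libraries were tested with limma 3.58.1 in R 4.3.3 (trend, two-sided, Benjamini-Hochberg adjustment over all tested genes, threshold 0.05) without a block, KO against WT and line 6 against line 4. The code of the fit was run on simulated data with large known changes between KO and WT and independent noise. The simulation had no founder line effect and no general shift, so it does not show how the fit performs on these data. In limma, p-values rest on the spread between the 2 clones of a group and on a trend of spread over all genes. The trend counted for 16.4 degrees of freedom between KO and WT, against 2 from a gene's own clones. With the founder line as a block it counted for infinitely many there, against 1. Between the lines, as deposited, it counted for infinitely many, so that the SE follows the level of a gene. A group there is 1 KO and 1 WT clone, so its spread holds the genotype difference. The replicate numbers pair the samples, since the names of the clones give 1 founder line per number. Across genes, deviations of KO and WT clones of 1 line correlated at r = 0.695. The relative change is the log2 difference of 2 clones minus the median over tested genes.

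The members and gene lists were chosen with earlier results of these data known. Further genes of a list were named if they passed the test, otherwise the 2 with the largest mean relative change among those on the same side of the median gene in both lines. The nearest patterns are the 2 of lowest difference for each member. Tcl1, Pou3f1, Fap, the markers that differed between the lines, Lin28b, Dnmt3b, Sall2 and Nanogpd were chosen after their values were seen. Alternatives were another pseudocount, no filter, centring, quantile normalization, a founder line or genotype term, a robust spread, other references for the relative change and leaving out each library. Promoters are from RefSeq on GRCm38.p6, and no coordinates of the authors' build were used.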

Additional observations from a re-analysis of the deposited data

Results flagged for a closer look

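Sall4 was the 1 factor whose KO clone lay on opposite sides of the median gene in the 2 founder lines, at -0.07 in line 6 and 0.037 in line 4. The difference was not tested, since each line has 1 clone of each genotype. Opposite sides were also found for 45.8% of all tested genes.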

How the results depend on the processing

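The count of genes called between KO and WT, 2 as reported, was 0 with all genes kept, 0 after centring on library medians and 0 after quantile normalization. With the replicate block it was 95, on centred values with the block 33, and with the block and a robust spread 91. Replicate 1 is line 4 and replicate 2 line 6. Leaving out single libraries gave 0 (either KO replicate) to 133 (WT replicate 2), with 20 without WT replicate 1. Between line 6 and line 4 the count, 236 as reported, was 0 with all genes kept, 3602 on centred values, 3865 with quantile normalization, 1089 with the replicate block (genotype as a term), 3531 on centred values with it and 1096 with a robust spread. Leaving out single libraries gave 7 (WT replicate 2) to 1607 (KO replicate 1), with 21 without KO replicate 2 and 853 without WT replicate 1. The cause of these changes was not tested. In a fit that leaves out a library, the lone clone of a group is assumed to vary like the others.

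Between KO and WT, 0 of the 7 factors passed under any of 11 alternatives, the replicate block included. Sall4 was above 0 with quantile normalization (0.033), and Utf1 on centred values with and without the block (0.10) and with quantile normalization (0.16). Between the lines, all factors but Utf1 passed in limma with quantile normalization, at adjusted p-values from 0.0063 for Lin28a to 0.0318 for Pou5f1. That fit called 3865 of 11932 tested genes. The difference of Pou5f1 between the lines ran from -0.015 without KO replicate 1 to 0.639 without WT replicate 1. That of Prdm14 was -0.70 without KO replicate 1. In these fits line 4 holds 1 genotype, so line and genotype are mixed. The median of all tested genes was -0.23 without KO replicate 1 and 0.21 without WT replicate 1. The count of factors below the median gene in both lines, 5 as reported, was 1 with the 12 stem cell markers as the reference, an alternative added after the data were seen, and 4 to 7 under the others.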

Other observations

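A further 3 genes from the lists were higher in line 6 than in line 4 in both genotypes. They passed the test between the lines, in which limma called 0.947% of all tested genes higher in line 6. Myc stood at 7.96 FPKM in KO and 8.91 FPKM in WT of line 6, against 2.08 FPKM in KO and 2.63 FPKM in WT of line 4 (log2 fold change 1.5, limma adjusted p = 0.000315). Foxd3, a forkhead factor of stem cells, stood at 3.06 FPKM in KO and 3.18 FPKM in WT of line 6, against 0.688 FPKM in KO and 1.4 FPKM in WT of line 4 (1.03, adjusted p = 0.00598). Hmga2 stood at 4.31 FPKM in KO and 3.70 FPKM in WT of line 6, against 1.23 FPKM in KO and 1.71 FPKM in WT of line 4 (1.02, adjusted p = 0.0153). These were named after their values were seen. Of the markers of other cells, S100a4 (log2 fold change 1.24, adjusted p = 0.0289), Cubn (1.54, adjusted p = 8.88e-07) and Dab2 (1.08, adjusted p = 0.00234) were also higher in line 6, and Mmp3 was lower (-1.10, adjusted p = 0.0299). Cubn and Dab2 averaged under 1 FPKM in line 4 and were tested only through their level in line 6, which favours a higher call there.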
